A study of Mus musculus with 20 samples.

Results

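The genes described here are 10 homeostatic genes of astrocytes, the glial cells that take up transmitter, move water and ions and feed neighbouring neurons: Slc1a2, Slc1a3, Glul, Aqp4, Gja1, Gjb6, Aldoc, Aldh1l1, S100b and Fgfr3. They are a list of genes named for their transport and metabolic roles, with earlier results of these data known and no value used as a criterion, and are 10 of the 49671 genes counted in each library. The data were bulk RNA sequencing of single hippocampi, with 1 library from each of 20 male wild-type mice aged 10 to 12 weeks. The series asks about inflammation and degeneration in the brain under immune checkpoint inhibition (ICI), antibodies that release T cells from inhibitory signals.

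Each of 4 groups held 5 mice. Control mice had no tumour and were given isotype control antibody. The ICI group had no tumour and was given anti-CTLA-4, 3 doses of 1 mg a week, together with anti-PD-1, 2 doses of 200 µg a week. Melanoma mice carried tumours of D4M-3A.UV2, a mouse melanoma line, from intradermal injections of 500000 cells on both sides, and were given isotype antibody. The melanoma plus ICI group carried the same tumours and was given both checkpoint antibodies. Antibodies went into the peritoneum, tumours had 1 week to engraft, and 3 weeks of ICI are stated for the tumour-bearing mice. Brains were collected 72 hours after the last injection. The tumours lay in the skin, so the hippocampus was studied at a distance from them, and all tumours came from a single cell line.

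Astrocytes clear glutamate from the synaptic cleft through the transporters GLT-1 and GLAST, and convert it to glutamine, which neurons take back to make transmitter again. Their endfeet on blood vessels hold water channels, and gap junctions couple neighbouring astrocytes into a network that spreads potassium, calcium signals and metabolites. Changes in these functions are known from epilepsy, injury and neurodegeneration.

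All markers listed for neurons, for hippocampal fields CA1 and CA3 and for the dentate gyrus were above 0 in all 20 libraries. Library totals ran from 21990624 to 25735149 counts, and mitochondrial genes took 3.08% to 5.10% of them. The 10 genes together took 0.501% to 0.652% of the counts. Neighbouring tissue was present in unequal amounts, with the summed level of 6 choroid plexus markers between 125.9 and 10001 CPM (counts in each 1000000 of a library, after edgeR's TMM scaling). For 6 striatum markers the sum reached 890.6 CPM among melanoma libraries and 469 CPM where tumour-bearing mice had ICI. Mice without a tumour had at most 133.5 CPM (control) and 113.3 CPM (ICI), and the lowest tumour-bearing library had 92.72 CPM. Hippocampal tissue varied too. The 5 dentate gyrus markers summed to 59.1 CPM in the lowest library, of melanoma plus ICI, and 683.2 CPM in the highest, of ICI. Control replicate 4 and melanoma plus ICI replicate 1 stood apart from the other libraries, with long transcripts low and short ones high. Among the shortest genes, with at most 2128 exon bases, the median deviation from the other libraries was 0.35 on the log2 scale in control replicate 4 and 0.20 in melanoma plus ICI replicate 1. Among the longest, with at least 5828 bases, it was -0.32 and -0.21. These deviations by length were computed for this pair of libraries alone, so those of the other libraries are not known. The range of folds in each comparison and the correlations between genes or with scores are given with and without control replicate 4 and melanoma plus ICI replicate 1. Library numbers ran in separate blocks by group, so group and any batch marked by these numbers cannot be told apart. In bulk tissue, fewer astrocytes and less RNA per astrocyte cannot be told apart either.

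The starts of 4 of the genes are shown because these genes vary together from mouse to mouse in the pairs described further on, Gjb6 with Aldoc and Slc1a3 with Gja1. Each stretch runs from 250 bases before the RefSeq transcription start to 50 bases from it on, 5′ to 3′ on the gene's strand, from RefSeq on GRCm38.p6. Capitals mark the TATA box (TATAAA), the GC box (GGGCGG), the CCAAT box (CCAAT) or the CRE core (TGACG) on either strand.
Gjb6, chr14:57133562-57133861, minus strand: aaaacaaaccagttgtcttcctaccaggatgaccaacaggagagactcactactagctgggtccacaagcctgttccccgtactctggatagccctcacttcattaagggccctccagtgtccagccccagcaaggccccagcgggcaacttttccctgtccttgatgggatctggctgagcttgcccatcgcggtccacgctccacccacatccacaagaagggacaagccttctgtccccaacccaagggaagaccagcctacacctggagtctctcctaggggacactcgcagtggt
Aldoc, chr11:78322823-78323122, plus strand: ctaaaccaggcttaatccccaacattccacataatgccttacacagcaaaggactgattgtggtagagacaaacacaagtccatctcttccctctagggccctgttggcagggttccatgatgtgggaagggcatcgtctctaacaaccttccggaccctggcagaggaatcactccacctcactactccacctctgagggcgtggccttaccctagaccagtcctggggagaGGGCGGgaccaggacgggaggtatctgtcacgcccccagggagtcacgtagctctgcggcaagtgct
Slc1a3, chr15:8710758-8711057, minus strand: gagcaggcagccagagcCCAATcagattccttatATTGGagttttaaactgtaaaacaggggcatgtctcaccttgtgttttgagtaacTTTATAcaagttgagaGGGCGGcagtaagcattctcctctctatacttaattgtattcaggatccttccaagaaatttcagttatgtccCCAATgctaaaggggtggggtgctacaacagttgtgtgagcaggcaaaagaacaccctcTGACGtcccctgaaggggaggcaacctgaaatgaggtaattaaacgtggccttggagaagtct
Gja1, chr10:56377050-56377349, plus strand: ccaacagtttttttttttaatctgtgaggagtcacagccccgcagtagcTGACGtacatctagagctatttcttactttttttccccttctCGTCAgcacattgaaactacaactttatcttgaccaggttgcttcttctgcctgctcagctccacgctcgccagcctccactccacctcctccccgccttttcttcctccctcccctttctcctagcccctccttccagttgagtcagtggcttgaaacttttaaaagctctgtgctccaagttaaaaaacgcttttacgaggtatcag

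Promoter windows of this kind were used for 9 of the 10 genes, and Aqp4 was left out of the search. In them, 8 motifs were searched on both strands: the TATA box (TATAAA), the GC box (GGGCGG), the E-box (CACGTG), the CRE core (TGACG), the SOX core (ACAAT), the NFI core (TTGGC), the NFI palindrome and the CCAAT box (CCAAT). The NFI core and the CCAAT box can overlap on opposite strands, and the palindrome holds that core and its reverse complement. The shares of all 32851 promoters with a match were, in the same order, 13.6%, 35.7%, 7.15%, 20.8%, 31%, 46.7%, 0.0365% and 37.4%. The Gjb6 window held none of the 8. The Aldoc window held 1 GC box at positions -17 to -12 from the start, 1 NFI core and 1 SOX core. The Slc1a3 window held 3 CCAAT boxes, 1 GC box, 1 SOX core, 1 CRE core at -13 to -9 and 1 TATA box on the reverse strand at -161 to -156. The Gja1 window held 2 CRE cores and no other motif of the list. Gjb6 and Aldoc therefore shared none of these motifs, and Slc1a3 and Gja1 shared the CRE core alone. GC content was 57.3% in Gjb6, 56.3% in Aldoc, 45.3% in Slc1a3 and 47.7% in Gja1, beside a median of 52.7% over all promoters.

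Glutamate uptake came first among the functions. Slc1a2 encodes GLT-1, the main glutamate transporter of forebrain astrocytes (chromosome 2, 102658659 to 102790784, plus strand, 13133 exon bases, with all gene positions as in the deposited tables). Its level was 2215, 2393, 2234, 1430 and 2416 CPM in control replicates 1 to 5, and 2265, 2389, 2019, 2191 and 2381 CPM in ICI. It was 2328, 2492, 1930, 2099 and 2365 CPM in melanoma and 1484, 2130, 2522, 1969 and 2084 CPM in melanoma plus ICI. The pair of low values belonged to the libraries that stood apart, and the other libraries of all groups overlapped. The means were 2138 ± 405.8 CPM (SD, n = 5) in control, 2243 ± 225 in melanoma, 2249 ± 153.1 in ICI and 2038 ± 373.2 in melanoma plus ICI. Without those libraries the control mean was 2314 ± 104.6 CPM (n = 4) and the melanoma plus ICI mean 2176 ± 240.2 CPM (n = 4).

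Slc1a3 encodes GLAST, the transporter shared with radial glia and Bergmann glia (chromosome 15, 8634124 to 8710764, minus strand, 8537 exon bases). It ranged from 427.8 to 535.3 CPM in control, 473.4 to 529.1 in melanoma, 466.4 to 542.2 in ICI and 436.6 to 590.8 in melanoma plus ICI. The 4 group means lay between 492.2 ± 45.36 CPM in control and 512.4 ± 29.65 CPM in ICI (SD, n = 5 each), a gap smaller than either SD.

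Glul encodes glutamine synthetase, which turns the glutamate taken up into glutamine (chromosome 1, 153899944 to 153909723, plus strand, 3323 exon bases). Control replicates 1 to 5 had 1497, 1594, 1454, 1889 and 1812 CPM, and ICI replicates 1312, 1499, 1524, 1560 and 1488 CPM. Melanoma replicates had 1802, 1809, 1620, 1651 and 1713 CPM, and melanoma plus ICI replicates 1796, 1277, 2020, 1288 and 1344 CPM. Every melanoma library was above every ICI library, while melanoma plus ICI split into a pair of high libraries and 3 low ones. The means were 1649 ± 192.6 CPM in control, 1719 ± 85.78 in melanoma, 1477 ± 95.99 in ICI and 1545 ± 341.5 in melanoma plus ICI (SD, n = 5 each).

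Aqp4 encodes aquaporin-4, the water channel of perivascular endfeet (chromosome 18, 15389394 to 15403684, minus strand, 5082 exon bases). It was 96.64, 115.3, 104.9, 70.71 and 96.31 CPM in control and 95.92, 107.6, 87.21, 112.6 and 106 CPM in ICI. In melanoma it was 75.22, 91.18, 75.9, 82.67 and 99.75 CPM, and in melanoma plus ICI 76.37, 111.1, 76.64, 118.7 and 99.78 CPM. Melanoma had the lowest mean, 84.94 ± 10.48 CPM, and ICI the highest, 101.8 ± 10.18 CPM (SD, n = 5 each), and their libraries overlapped.

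Gja1 encodes connexin 43 and Gjb6 connexin 30, the main gap junction proteins between astrocytes. Gja1 (chromosome 10, 56377300 to 56390419, plus strand, 3105 exon bases) was the steadiest of the 10 genes. It stayed between 199.7 and 235.2 CPM in all 20 libraries, with a coefficient of variation of 4.76%. Its group means ran only from 214.2 ± 8.564 CPM in melanoma plus ICI to 222.7 ± 9.035 CPM in melanoma (SD, n = 5 each).

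Gjb6 (chromosome 14, 57123303 to 57133611, minus strand, 2269 exon bases) varied more. Its level was 66.58, 39.13, 46.98, 64.39 and 55.07 CPM in control, and 45.99, 43.61, 43.29, 47.77 and 56.44 CPM in ICI. It was 67.27, 62.89, 59.52, 57.56 and 68.28 CPM in melanoma and 67.5, 49.42, 69.56, 42.37 and 50.13 CPM in melanoma plus ICI. As with Glul, every melanoma library lay above every ICI library, and control and melanoma plus ICI spanned both. The group means were 54.43 ± 11.59 CPM in control, 63.11 ± 4.683 in melanoma, 47.42 ± 5.365 in ICI and 55.8 ± 12.04 in melanoma plus ICI (SD, n = 5 each).

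Aldoc encodes aldolase C, the brain form of a glycolytic enzyme (chromosome 11, 78322968 to 78327781, plus strand, 3263 exon bases). It ranged from 578.7 to 835.9 CPM in control, 685.3 to 776.1 in melanoma, 626.7 to 751.7 in ICI and 602.5 to 832.5 in melanoma plus ICI, so all groups overlapped. The lowest group mean was 692.2 ± 47.7 CPM in ICI and the highest 739 ± 40.91 CPM in melanoma (SD, n = 5 each).

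Aldh1l1 encodes the folate enzyme 10-formyltetrahydrofolate dehydrogenase, widely used to mark astrocytes (chromosome 6, 90486427 to 90600203, plus strand, 4516 exon bases, 11% of them shared with the antisense gene Gm15756). It was 67.68, 50.74, 52.99, 59.6 and 72.34 CPM in control and 54.91, 52.44, 51.53, 52.88 and 62.62 CPM in ICI. It was 56.63, 59.52, 58.05, 53.83 and 62.63 CPM in melanoma and 66.23, 60.42, 81.09, 56.7 and 59.12 CPM in melanoma plus ICI. The highest value of all, 81.09 CPM, was in melanoma plus ICI replicate 3, and the groups overlapped. The means were 64.71 ± 9.805 CPM in melanoma plus ICI and 54.88 ± 4.503 CPM in ICI (SD, n = 5 each).

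S100b encodes a calcium-binding protein of astrocytes, also made by some oligodendrocyte lineage cells (chromosome 10, 76253853 to 76261159, plus strand, 1484 exon bases). It overlaps Dip2a, which is on the opposite strand, shares 0 exon bases with it and had 173% of its counts. Strand use in counting is not given in the sources used here. Control replicates 1 to 5 had 60.86, 58.91, 63.43, 148.9 and 66.8 CPM, and melanoma plus ICI replicates 96.74, 62.17, 69.52, 55.95 and 68.01 CPM. The ICI libraries lay between 55.29 and 65.48 CPM and the melanoma libraries between 54.3 and 66.98 CPM. The high values were those of the libraries that stood apart, and the other 18 lay between 54.3 and 69.52 CPM. The control mean was 79.78 ± 38.75 CPM (SD, n = 5), and 62.5 ± 3.415 CPM (n = 4) without replicate 4. The melanoma plus ICI mean was 70.48 ± 15.62 CPM (n = 5), and 63.91 ± 6.183 CPM (n = 4) without replicate 1.

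Fgfr3 encodes a fibroblast growth factor receptor found in astrocytes and their precursors (chromosome 5, 33721674 to 33737068, plus strand, 7158 exon bases, 13.9% of them shared with G630022F23Rik on the opposite strand). It ranged from 96.85 to 143 CPM in control, from 119.3 to 147.5 in melanoma and from 106.6 to 144 in melanoma plus ICI. Its highest value in ICI was 145.1 CPM, and all groups overlapped. The melanoma mean was 136 ± 11.78 CPM and the other 3 group means lay between 119.3 ± 18.42 and 119.8 ± 16.85 CPM (SD, n = 5 each).

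**Figure D1:**
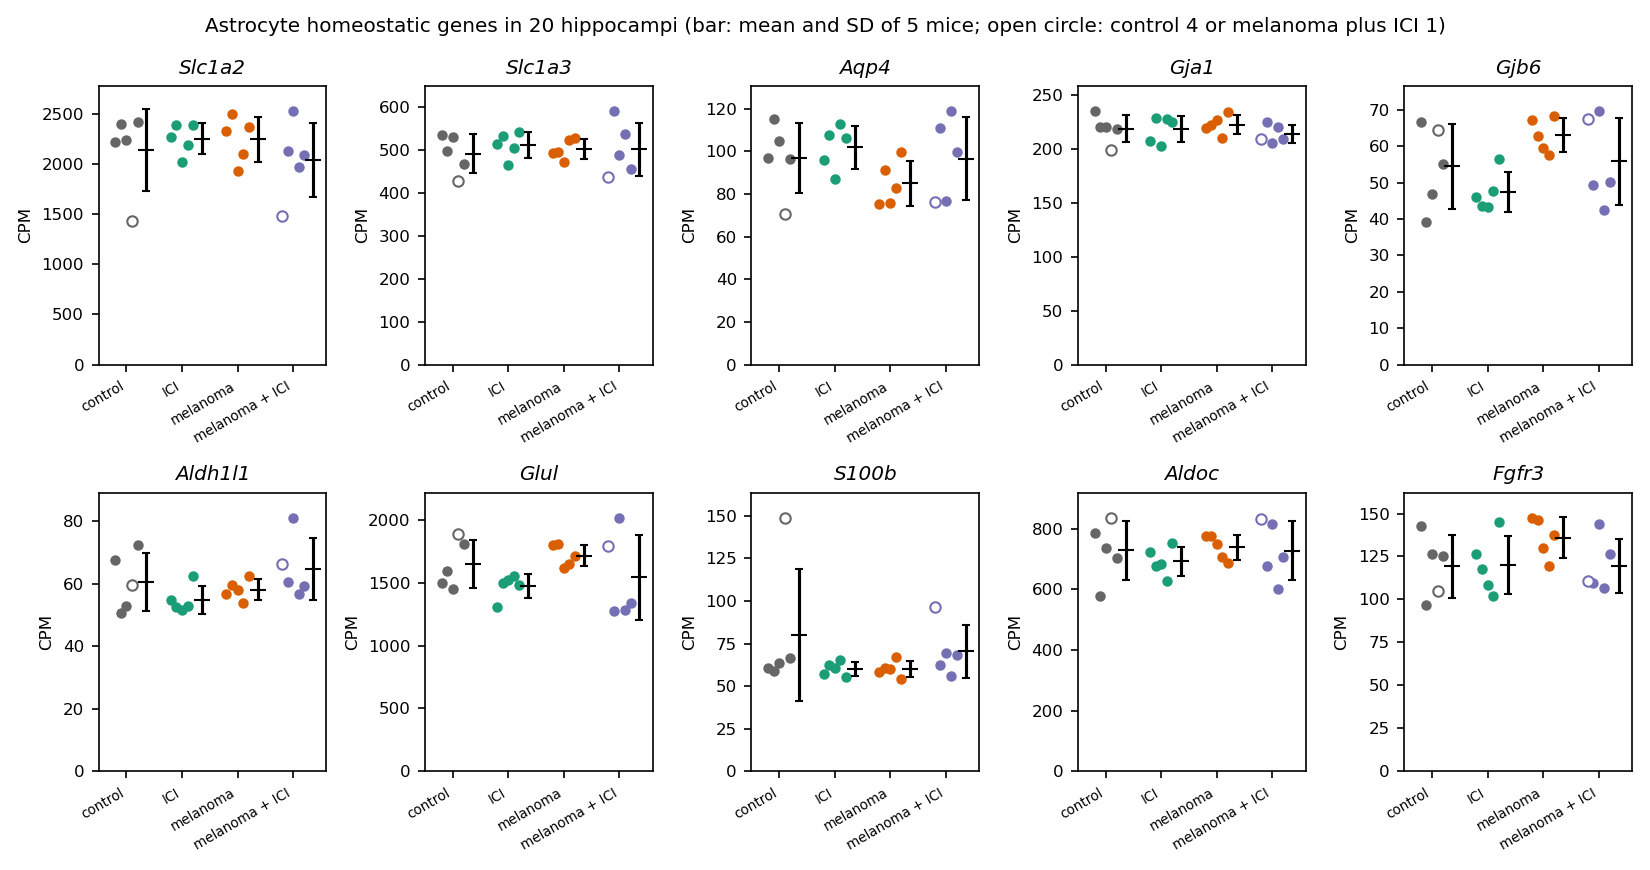
Level of each of the 10 genes in CPM (vertical axis, from 0) in each of the 20 libraries, by group, with the mean and SD of 5 mice as a bar; open circles are control replicate 4 and melanoma plus ICI replicate 1. Gja1 stays between 199.7 and 235.2 CPM, S100b is high in the open circles at 148.9 and 96.74 CPM, and for Gjb6 and Glul all melanoma points lie above all ICI points.

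Set on 1 scale by dividing by exon length, the genes kept much the same order in every library. The mean level per kb of exons was highest for Glul, at 480.7 ± 63.85 CPM per kb (SD, n = 20 libraries), followed by Aldoc at 221.2 ± 21.96 and Slc1a2 at 165 ± 22.52. Gja1 had 70.42 ± 3.353 CPM per kb, Slc1a3 58.85 ± 4.7 and S100b 45.56 ± 14.24. Gjb6 followed at 24.32 ± 4.452, Aqp4 at 18.7 ± 2.936, Fgfr3 at 17.28 ± 2.277 and Aldh1l1 at 13.2 ± 1.693 CPM per kb. Glutamine synthetase, aldolase C and the transporter GLT-1 thus stood at the top, and the receptor and the folate enzyme at the bottom, while GLAST, the other transporter, was in the middle. Among neighbours in that order, Aldoc was above Slc1a2 in 19 of 20 libraries and Slc1a3 above S100b in 18. Gjb6 was above Aqp4 in 15 libraries, with a mean gap larger than either SD. Aqp4 was above Fgfr3 in 12, with a gap smaller than either SD, so that pair did not differ beyond its spread. The other 5 neighbouring pairs kept their order in 20 of 20 libraries.

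The median coefficient of variation of the 10 genes over the 20 libraries was 13.2%, from 4.76% for Gja1 to 31.3% for S100b, beside a median of 18.9% over all 18427 genes tested. The biological variation within groups that edgeR estimated, which leaves out counting error, lay at percentiles 1.17 to 44.3 of all genes tested for 9 of the 10 and at percentile 65.6 for S100b. Both S100b values include the libraries that stood apart, at 148.9 and 96.74 CPM, while its other libraries lay between 54.3 and 69.52 CPM. Neither value was computed without that pair.

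**Figure D2:**
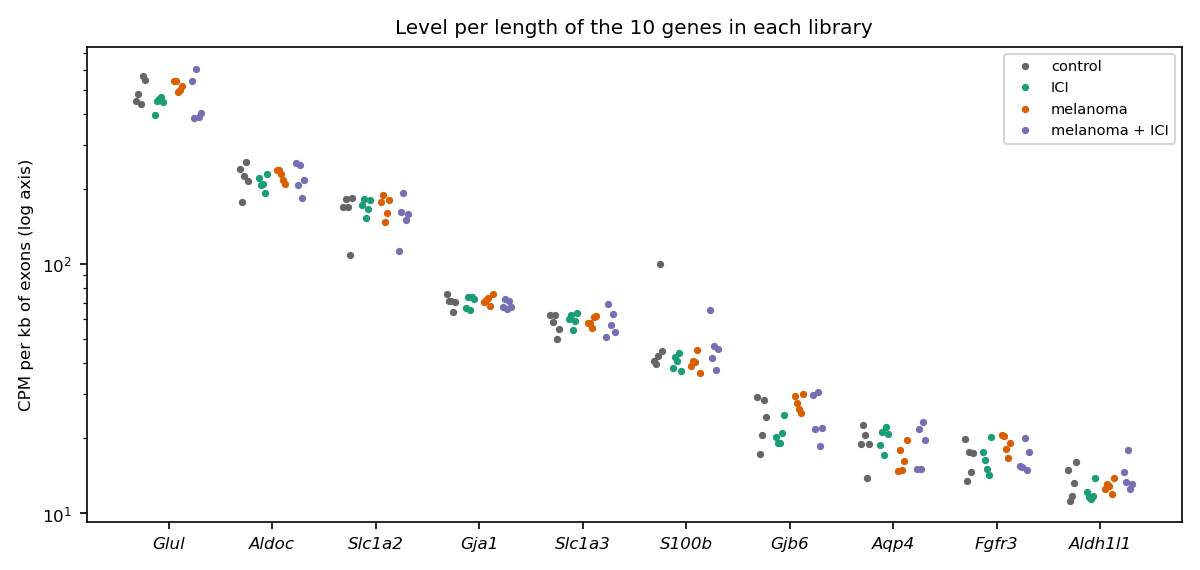
CPM per kb of exons (vertical log axis) of the 10 genes, ordered by their mean, with 1 point per library coloured by group. Glul lies highest, with a mean of 480.7, and Aldh1l1 lowest, with 13.2; control and melanoma plus ICI overlap all groups within each gene, melanoma lies above ICI for Gjb6 and Glul, and the high S100b point is control replicate 4.

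No effect of the tumour or of ICI on these genes passed the test. In edgeR's quasi-likelihood test over 18427 genes, 0 of the 10 genes had a Benjamini-Hochberg adjusted p under 0.05 in any of 6 comparisons, and neither did DESeq2 or limma voom call any of the 10. The share of all genes called was 0% in each of the 6 as well. DESeq2 called 1, 8, 0, 0, 9 and 47 of all genes, and limma voom 0, 1, 0, 25, 0 and 19, in the order ICI against control, melanoma against control, melanoma plus ICI against control, against melanoma and against ICI, and the interaction. The interaction is the ICI effect with tumour minus the ICI effect without. At an unadjusted p under 0.05, the counts of the 10 genes were 0, 0, 0, 0, 1 and 1, beside 5.23%, 5.11%, 2.38%, 5.50%, 8.63% and 10.3% of all genes. With 10 genes, these counts are near that background. Comparisons that use the same group share its 5 libraries and are not independent.

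ICI without a tumour was set against control first. The fitted folds of the 10 genes ran from 0.755 for S100b to 1.05 for Slc1a2 and Aqp4. Gjb6 had a fold of 0.871 (95% confidence interval 0.707 to 1.07), Glul 0.895 (0.752 to 1.07) and Aldh1l1 0.904 (0.777 to 1.05), with adjusted p = 0.766 for each in edgeR. Gja1 had a fold of 0.999, with the narrowest interval, 0.913 to 1.09. Higher folds than 1.29 lay outside the intervals of all 10 genes. The lower bound was 0.561 for S100b. Without control replicate 4 the folds ran from 0.897 for Aldh1l1 to 1.01 for Slc1a3, and 1 of the 10 lay above 1 in place of 4. The S100b fold was then 0.959, and those of Slc1a2 and Aqp4 turned, to 0.968 and 0.983.

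Melanoma against control gave folds from 0.753 for S100b to 1.16 for Gjb6. Connexin 30 and the receptor had the largest positive values, with 1.16 (0.941 to 1.43) for Gjb6 and 1.14 (0.964 to 1.35) for Fgfr3, and the water channel Aqp4 had 0.878 (0.72 to 1.07). The adjusted p was 0.877 for each in edgeR. Slc1a2, Slc1a3, Glul and Aldoc had folds of 1.05, 1.02, 1.04 and 1.01. Without control replicate 4 the fold was 0.956 for S100b, 0.964 for Slc1a2, which turned, and 0.819 for Aqp4, and 4 of the 10 folds lay above 1 in place of 7.

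Tumour-bearing mice given ICI were compared with control, with melanoma and with ICI. Against control, all folds lay between 0.884 and 1.07, with adjusted p = 0.9997 for all 10 genes in edgeR. The lowest of them, for S100b, was 1.13 without control replicate 4 and 1.02 without both libraries that stood apart, where the 10 folds lay between 0.931 and 1.05. Against melanoma, Aldh1l1, Aqp4 and S100b had folds above 1, at 1.11 (0.957 to 1.3), 1.14 (0.932 to 1.39) and 1.17 (0.873 to 1.58). Fgfr3, Gjb6 and Glul had folds of 0.879 (0.743 to 1.04), 0.884 (0.718 to 1.09) and 0.899 (0.755 to 1.07), and the adjusted p was at least 0.825 in edgeR for all 10 genes. The S100b fold was 1.06 without melanoma plus ICI replicate 1. Without both libraries that stood apart, the folds ran from 0.840 for Gjb6 to 1.20 for Aqp4.

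Against ICI, Aldh1l1 had the smallest p-value of the 10 genes. Its fold was 1.18 (1.01 to 1.37), a log2 fold change of 0.24 with a standard error of 0.10, at an unadjusted p of 0.0349 and adjusted p = 0.568 in edgeR. The value was 0.15 without melanoma plus ICI replicate 3, the library with the highest Aldh1l1, and also the highest Slc1a2, Gjb6 and Glul. Among all libraries, it had the lowest scores (mean log2 CPM of the markers) of CA1, CA3 and dentate gyrus, at 5.62, 5.03 and 3.16. Its neocortex and endothelium scores were the highest, at 5.46 and 4.89. The log2 fold change of Aldh1l1 was 0.02 once scores of choroid plexus, striatum, dentate gyrus and neocortex entered the fit. The summed level of the 5 neocortex markers ran from 111.5 to 225.1 CPM in ICI and from 141.2 to 350.9 CPM in melanoma plus ICI, with 0 markers at 0. For the 4 pericyte markers it was 127.1 to 173.8 CPM in ICI and 180.6 to 218.1 CPM in melanoma plus ICI. For the 6 endothelium markers it was 124.1 to 162 CPM and 160.8 to 218 CPM, in the same order. The part of vessel cells in the Aldh1l1 value was not tested. In the same comparison Gjb6 had a fold of 1.18 (0.954 to 1.45) and Slc1a2 one of 0.906 (0.741 to 1.11). Without melanoma plus ICI replicate 1 they were 1.11 and 0.963. Without both libraries that stood apart, the 10 folds ran from 0.970 for Slc1a2 to 1.17 for Aldh1l1.

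In the interaction, S100b had a log2 difference of 0.64 with a standard error of 0.29 (unadjusted p = 0.0394, adjusted p = 0.484 in edgeR), a ratio of folds of 1.56 (1.02 to 2.37). It was 0.30 without control replicate 4, 0.50 without melanoma plus ICI replicate 1 and 0.16 without both. Aldh1l1 had a difference of 0.30 with a standard error of 0.15 and adjusted p = 0.487. The other 8 genes had ratios of folds between 0.864 for Slc1a2 and 1.08 for Aqp4. Without both libraries that stood apart the Slc1a2 ratio was 1.01 and that of Aqp4 1.22, and the 10 ratios ran from 0.923 for Fgfr3 to 1.24 for Aldh1l1.

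Counted by overlap of libraries, 0 of the 10 genes separated the groups in 5 of the 6 pairs of groups. The shares of all genes that did so were 0.885% for ICI against control, 1.04% for melanoma against control, 0.304% for melanoma plus ICI against control, 1.54% for melanoma plus ICI against melanoma and 1.45% for it against ICI. Between melanoma and ICI, which was not one of the 6 comparisons tested, 2 of 10 genes, Gjb6 and Glul, did not overlap, beside 1.41% of all genes. The summed level of the 7 oligodendrocyte markers ran from 6151 to 8432 CPM in melanoma and from 3055 to 7330 CPM in ICI, with 0 markers at 0, and its part in this difference was not tested.

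**Figure D3:**
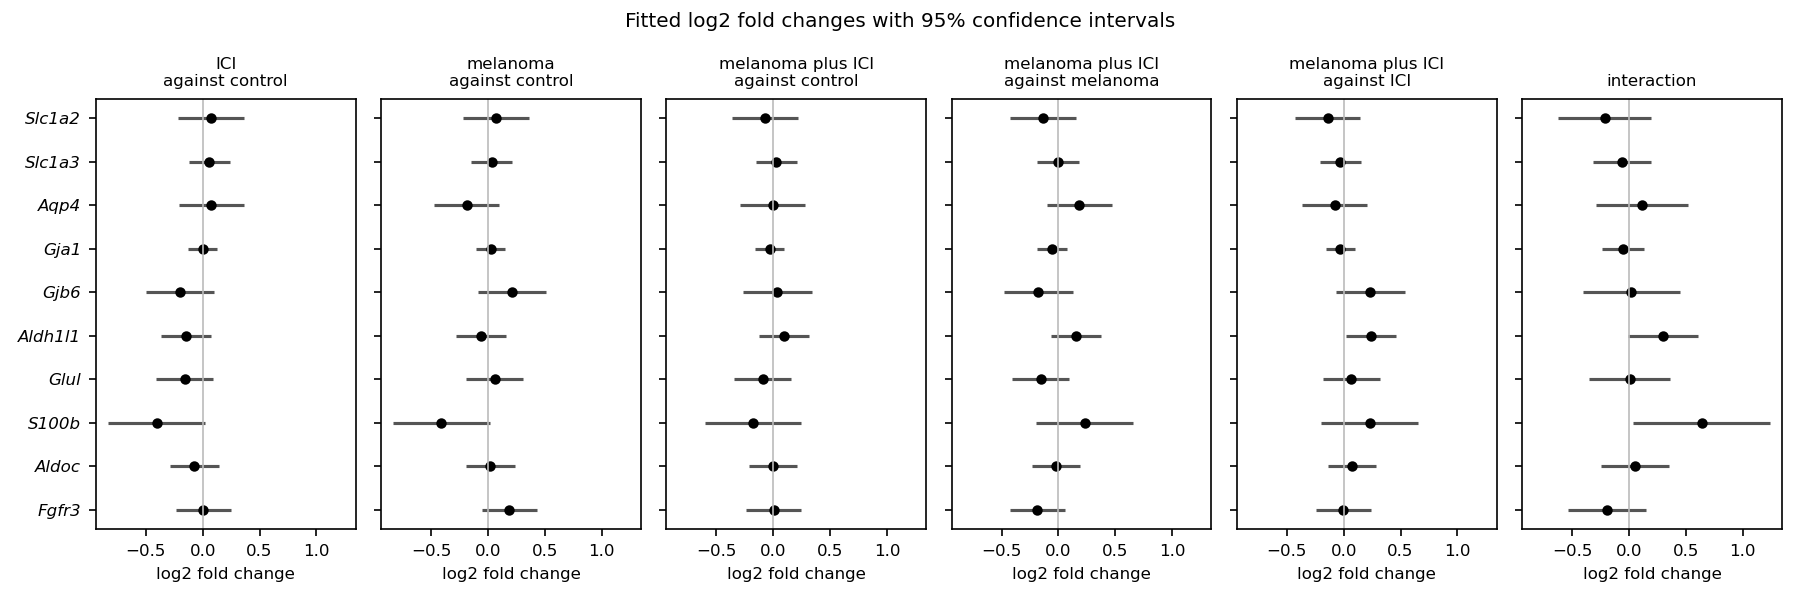
Fitted log2 fold change (horizontal axis) of the 10 genes in each of the 6 comparisons, with 95% confidence intervals as lines. Most intervals cross 0; those of Aldh1l1 in melanoma plus ICI against ICI, from 0.02 to 0.46, and of S100b in the interaction, from 0.03 to 1.24, do not, with adjusted p of 0.568 and 0.484 in edgeR.

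Over the 10 genes, the median log2 fold change was -0.04, 0.03, 0.00, -0.04, 0.03 and 0.01 in the 6 comparisons in the order above. Over all genes it was -0.01, -0.01, 0.00, 0.02, 0.02 and 0.02. In melanoma against control the median of the 10 turned to -0.02 without control replicate 4. The summed level of the 10 genes was 5637 ± 287.9 CPM in control, 5829 ± 341 in melanoma, 5533 ± 230 in ICI and 5433 ± 602 in melanoma plus ICI (SD, n = 5 each), differences within the spread of the mice.

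Some of the genes varied together between mice. Of the 45 pairs among the 10 genes, 20 had an adjusted p under 0.05 for Pearson's r of log2 CPM over the 20 libraries, 12 positive and 8 negative (permutation test, 100000 resamples, two-sided, adjusted over the 45). By Spearman's rho it was 12 pairs. With group means subtracted it was 9, and without the libraries that stood apart also 9. All points share library composition, since CPM are shares of a total. The median r of the 45 pairs was 0.16, so the 10 genes did not vary as a single unit.

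Over all 20 libraries, connexin 30 and aldolase C formed the strongest pair. Gjb6 rose with Aldoc at r = 0.80 (permutation p = 3e-05, adjusted p = 0.00135) and rho = 0.77 (permutation p = 0.00013, adjusted p = 0.00495). It was 0.71 without the 2 libraries farthest from the Gjb6 median, 0.84 within groups and 0.78 without the libraries that stood apart. Gjb6 also rose with Aldh1l1, at r = 0.68 (permutation p = 0.0008, adjusted p = 0.00694) and rho = 0.74 (permutation p = 0.00041, adjusted p = 0.00615), with 0.66, 0.81 and 0.68 in the same 3 checks. The water channel went the other way. Aqp4 fell as Aldoc rose, at r = -0.79 (permutation p = 6e-05, adjusted p = 0.00135) and rho = -0.77 (permutation p = 0.00022, adjusted p = 0.00495), with -0.74 without the 2 libraries farthest from the Aqp4 median, -0.79 within groups and -0.72 without the libraries that stood apart. These 3 pairs passed at an adjusted p under 0.05 over all libraries, within groups and without the libraries that stood apart.

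Around them, Fgfr3 rose with Aldoc at r = 0.57 (permutation p = 0.00908, adjusted p = 0.0275; rho = 0.56, permutation p = 0.0118), and at 0.90 without the libraries that stood apart. It rose with Gjb6 at r = 0.63 (permutation p = 0.00395, adjusted p = 0.0137; rho = 0.60, permutation p = 0.00587), and at 0.85 without them. Within groups both had r = 0.57, with adjusted p of 0.0789 and 0.0799 by permutation. Without the 2 libraries farthest from the median of Aldoc and of Gjb6, in that order, they were 0.37 and 0.50. Slc1a3 rose with Aqp4 at r = 0.65 (permutation p = 0.00181, adjusted p = 0.0102; rho = 0.66, permutation p = 0.00176) and with Gja1 at r = 0.63 (permutation p = 0.00313, adjusted p = 0.0128; rho = 0.66, permutation p = 0.00207). Both were 0.54 without the 2 libraries farthest from the Slc1a3 median, and 0.49 without the libraries that stood apart, at an adjusted p of 0.127 by permutation. Within groups they were 0.72 and 0.66, with adjusted p of 0.0272 and 0.0219 by permutation. Aqp4 also ran against Gjb6, at r = -0.70 (permutation p = 0.00084, adjusted p = 0.00694; rho = -0.66, permutation p = 0.00209), and against Glul, at r = -0.69 (permutation p = 0.00108, adjusted p = 0.00694; rho = -0.67, permutation p = 0.00195). Without the 2 libraries farthest from the Aqp4 median these were -0.65 and -0.62. Within groups they were -0.62 and -0.65, with an adjusted p of 0.0789 for each by permutation. Without the libraries that stood apart they were -0.65 and -0.62, with adjusted p of 0.0281 and 0.0337 by permutation.

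The relation of S100b to the glutamate transporter rested on 2 libraries. Slc1a2 and S100b had r = -0.79 (permutation p = 0.00204, adjusted p = 0.0102) and rho = -0.23 (permutation p = 0.333). Without control replicate 4 and melanoma plus ICI replicate 1, which were also the 2 farthest from the Slc1a2 median, r was 0.03. In control replicate 4, S100b deviated from the other libraries by 1.29 on the log2 scale and Slc1a2 by -0.65, and in melanoma plus ICI replicate 1 they deviated by 0.67 and -0.60. These libraries also had the highest mitochondrial shares, 5.10% and 4.28% of counts. With the score of the mitochondrial genome, S100b had r = 0.90 (permutation p = 0.00015, adjusted p = 0.0054; rho = 0.61, permutation p = 0.00573) and Slc1a2 r = -0.80 (permutation p = 0.0005, adjusted p = 0.01; rho = -0.42, permutation p = 0.0674), and without the same libraries these were 0.42 and -0.29. The part of the mitochondrial share in these values was not tested. S100b is the shortest of the 10 genes and Slc1a2 the longest, at 1484 and 13133 exon bases. Slc1a2 and Slc1a3, the transporter pair, had r = 0.56 (permutation p = 0.00917, adjusted p = 0.0275; rho = 0.25, permutation p = 0.276) and 0.04 without the same libraries.

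**Figure D4:**
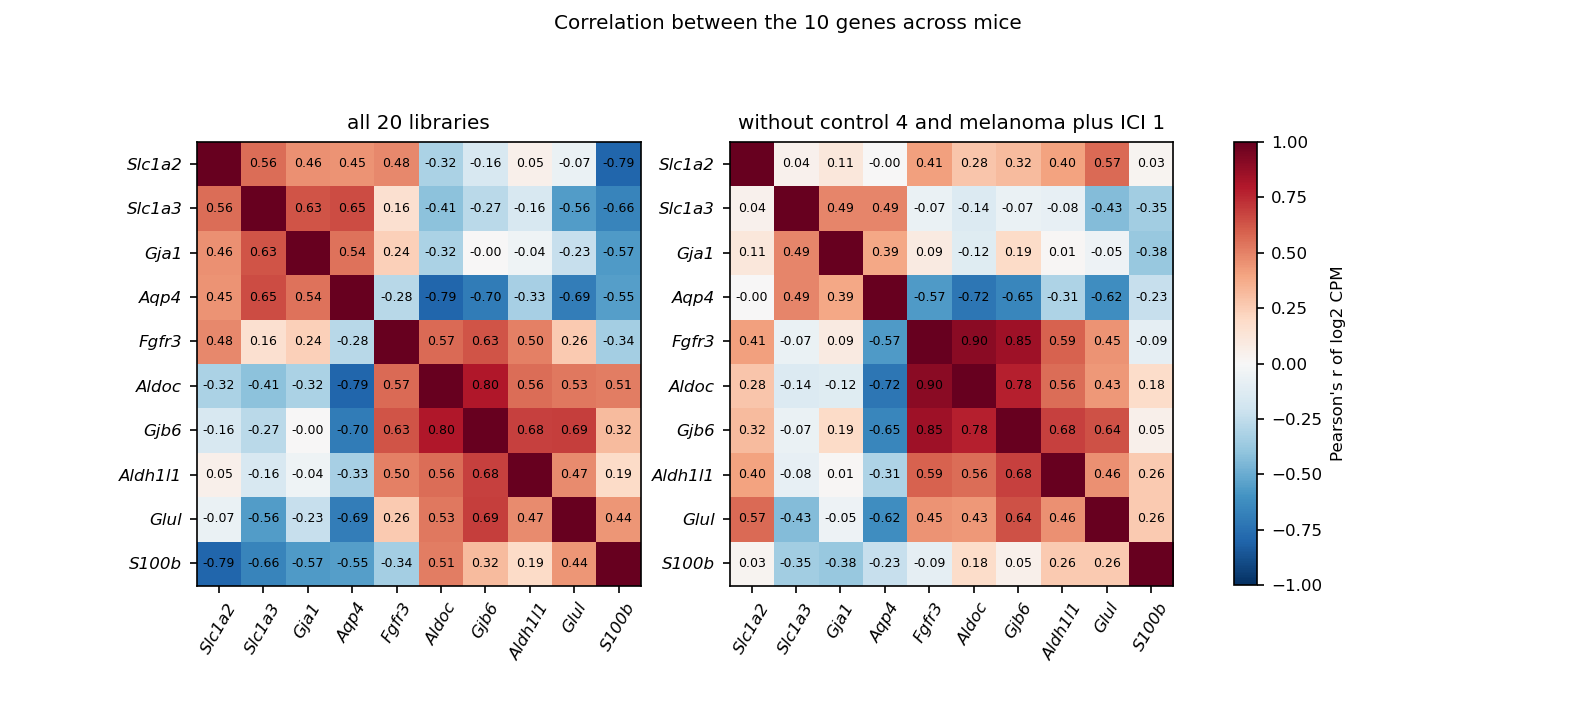
Pearson's r of log2 CPM for the pairs of the 10 genes, over all 20 libraries (left) and without control replicate 4 and melanoma plus ICI replicate 1 (right), on a colour scale from -1 to 1. Aldoc with Gjb6 keeps 0.80 and 0.78 and Aqp4 with Aldoc -0.79 and -0.72, while Slc1a2 with S100b goes from -0.79 to 0.03.

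Marker scores, the mean log2 CPM of a list of markers, were set against each gene to see which cell types and neighbouring tissues moved with it. Of 180 relations (10 genes by 18 scores), 14 had an adjusted p under 0.05 by permutation, 18 with group means subtracted and 6 without the libraries that stood apart. The same 6 relations passed in all 3. Aldh1l1 rose with the neocortex score at r = 0.88 (permutation p = 1e-05, the smallest that 100000 resamples can give, adjusted p = 0.0009) and rho = 0.88 (permutation p = 1e-05). It was 0.82 without the 2 libraries farthest from the Aldh1l1 median, 0.86 within groups and 0.93 without the libraries that stood apart. Aldh1l1 also rose with the endothelium score, at r = 0.86 (permutation p = 1e-05, adjusted p = 0.0009; rho = 0.83, permutation p = 2e-05), and with the pericyte score, at r = 0.77 (permutation p = 6e-05, adjusted p = 0.0027; rho = 0.77, permutation p = 0.00015). It fell as the CA3 score rose, at r = -0.73 (permutation p = 0.0003, adjusted p = 0.00765; rho = -0.75, permutation p = 0.00027). Without the 2 libraries farthest from the Aldh1l1 median, these were 0.76, 0.70 and -0.66, and without the libraries that stood apart 0.88, 0.78 and -0.75.

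Gjb6 followed the neocortex score as well, at r = 0.72 (permutation p = 0.00034, adjusted p = 0.00765; rho = 0.73, permutation p = 0.00049), with 0.66 without the 2 libraries farthest from its median and 0.68 without those that stood apart. Glul followed the oligodendrocyte score, at r = 0.77 (permutation p = 5e-05, adjusted p = 0.0027; rho = 0.85, permutation p = 1e-05), with 0.71 and 0.76 in the same checks. Glutamine synthetase is known to be made in some oligodendrocytes too. The summed oligodendrocyte markers ran from 2913 to 8525 CPM in control, 6151 to 8432 in melanoma, 3055 to 7330 in ICI and 2963 to 8139 in melanoma plus ICI, so the melanoma mice lacked the low values of the other groups. For the neocortex markers the ranges were 94.25 to 248.8 CPM in control and 125.2 to 193.6 in melanoma, beside those given above for ICI and melanoma plus ICI. Markers of reactive astrocytes summed to 377.1 to 535.7 CPM in control, 361 to 478.9 in melanoma, 329.1 to 558 in ICI and 266.4 to 472.3 in melanoma plus ICI, with Lcn2, 1 of the 8, at 0 in at least 1 library. The score of the same markers, which gives each the same weight, was 2.80 ± 0.28 in control, 3.07 ± 0.23 in melanoma, 2.75 ± 0.22 in ICI and 2.95 ± 0.18 in melanoma plus ICI (SD, n = 5 each), so the sum and the score did not order the groups alike. The part of tissue make-up in the levels of the 10 genes was not tested beyond these relations and the fits with scores.

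**Figure D5:**
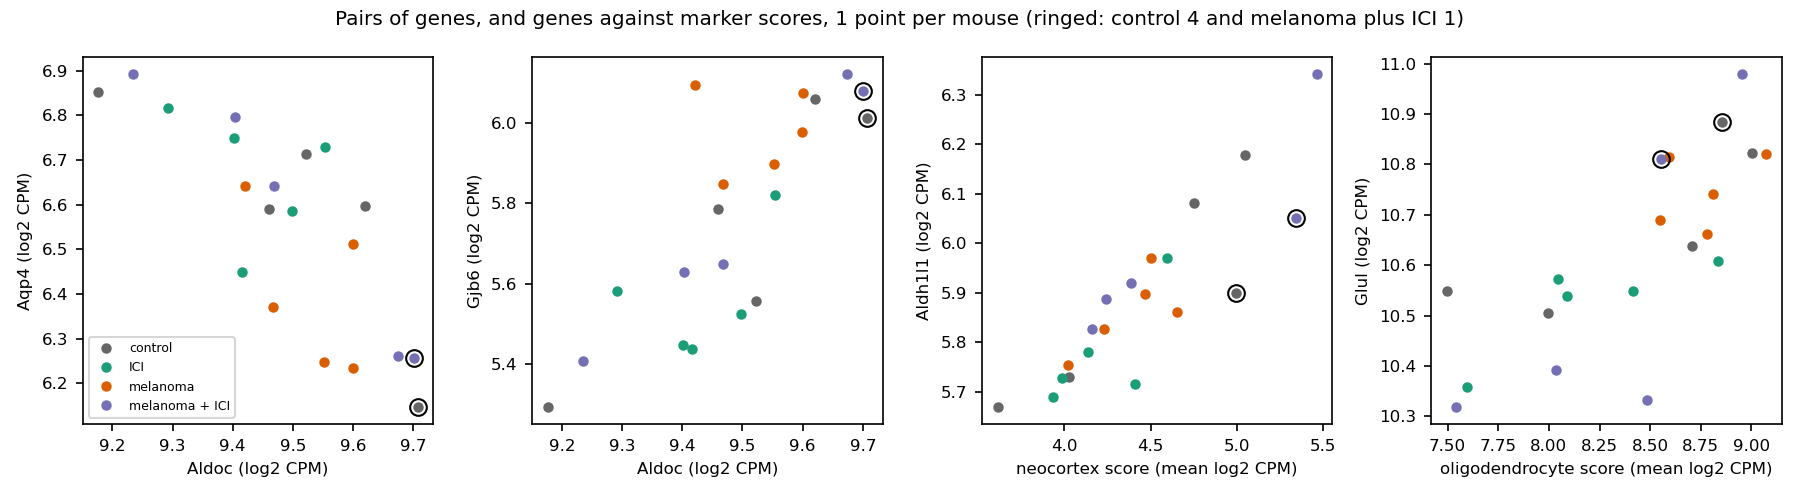
From left, Aqp4 and Gjb6 against Aldoc (log2 CPM), Aldh1l1 against the neocortex score and Glul against the oligodendrocyte score (mean log2 CPM), with 1 point per mouse coloured by group; rings mark control replicate 4 and melanoma plus ICI replicate 1. Pearson's r is -0.79, 0.80, 0.88 and 0.77, and mice of all groups lie along each trend.

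Other genes of the same functions were read from 6 lists, and all of their genes could be tested. In edgeR, 0 of them passed an adjusted p under 0.05 in either direction in any comparison. DESeq2 called 2 of them, both in the interaction, and limma voom 1, in melanoma plus ICI against melanoma. In the first 5 comparisons, where 5.23%, 5.11%, 2.38%, 5.50% and 8.63% of all genes had an unadjusted p under 0.05, the counts were 1, 2, 0, 2 and 2 of 17 genes of the glutamate and glutamine cycle and 3, 3, 0, 1 and 2 of 14 other transporters. They were 0, 0, 0, 1 and 2 of 14 endfoot and junction partners and 1, 2, 0, 3 and 2 of 22 metabolism genes. For FGF receptor signalling they were 1, 2, 1, 2 and 2 of 18, and for astrocyte identity 3, 1, 1, 3 and 1 of 27. The 3 transporters in ICI against control were all lower. Without the libraries that stood apart, 4 of the other transporters were higher and 0 lower in melanoma plus ICI against melanoma, beside 7.11% of all genes. In melanoma against control, 3 identity genes were then higher and 0 lower, and 4 transporters and 4 metabolism genes lower, beside 5.16%. In ICI against control it was then 1 identity gene, lower, beside 4.87%. In the interaction, where 10.3% of all genes had such a p, it was 3 of 17 genes of the glutamate and glutamine cycle (2 higher, 1 lower), 3 of 14 other transporters, 1 of 14 endfoot and junction partners and 4 of 22 metabolism genes (all higher). It was also 3 of 18 genes of FGF receptor signalling (1 higher, 2 lower) and 4 of 27 of astrocyte identity (all higher). Without the libraries that stood apart, where 7.99% of all genes had such a p, the interaction counts were 2, 4, 3, 4, 1 and 3 for the 6 lists in the same order. The 4 transporters, 3 endfoot partners and 4 metabolism genes were all higher, and the identity genes were 1 higher and 2 lower. In the glutamate and glutamine cycle, Gpt2, a mitochondrial transaminase that makes glutamate from alanine, had the smallest p, with a log2 fold change of -0.50 (standard error 0.11) in melanoma plus ICI against melanoma and adjusted p = 0.825 in edgeR. Its level was 88.85 ± 5.911 CPM in melanoma and 62.7 ± 6.825 CPM in melanoma plus ICI (SD, n = 5 each). Among 14 other transporters and potassium-buffering genes, Slc39a12, a zinc transporter, had 0.56 (standard error 0.14) in the interaction, with adjusted p = 0.281 in edgeR. It had 44.53 ± 5.285 CPM in control, 36.03 ± 4.888 in melanoma, 37.52 ± 3.024 in ICI and 44.81 ± 3.815 in melanoma plus ICI (SD, n = 5 each).

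Among 14 endfoot and junction partners, Gja5, a connexin of arterial endothelium, had 0.94 (standard error 0.33) in melanoma plus ICI against ICI, at levels of 0.583 ± 0.216 and 0.303 ± 0.127 CPM (SD, n = 5 each) and adjusted p = 0.563 in edgeR. In astrocyte metabolism, 22 genes, Pygm, a glycogen phosphorylase, had 0.77 (standard error 0.21) in the interaction, with adjusted p = 0.372 in edgeR. In FGF receptor signalling, 18 genes, Etv4, a transcription factor induced by FGF signals, had 0.66 (standard error 0.15) in the interaction, with adjusted p = 0.253 in edgeR. Its mean was 12.07 ± 1.638 CPM in control, 9.19 ± 0.713 in melanoma, 9.797 ± 0.868 in ICI and 11.78 ± 1.149 in melanoma plus ICI (SD, n = 5 each). In astrocyte identity, 27 genes, Ednrb, the endothelin B receptor, had 0.31 (standard error 0.12) in melanoma plus ICI against melanoma, with adjusted p = 0.825 in edgeR. The median log2 difference of this list in the interaction was 0.15, with 21 of 27 genes above 0, beside a median of 0.02 and 52.8% above 0 over all genes. Without the libraries that stood apart it was 0.10, with 17 of 27 above 0. Over all 20 libraries, the median of the 10 genes was 0.01, with 6 of 10 above 0. Over the 6 lists and 6 comparisons, list medians lay between -0.12, for astrocyte identity in melanoma against control, and 0.15, for the same list in the interaction. Without the libraries that stood apart they lay between -0.12 and 0.19, both for the other transporters, in melanoma against control and in the interaction, where 13 of 14 lay above 0. The interaction median of FGF receptor signalling went from 0.11 to -0.03.

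The patterns most like those of the 10 genes were looked for among the 12052 named genes that averaged 5 CPM or more, by Pearson's r of log2 CPM over the 20 libraries, as a description. With the mean z-score of the 10 genes, r was highest for Cit, at 0.85, followed by Evpl, Pdzd7, Etv6, Ank1, Coro6, Hivep1, Adgrl2, Castor2 and Igsf9b, at 0.83 to 0.85. By gene, the most alike was Ttbk1 for Slc1a2 at 0.95, Amot for Slc1a3 at 0.90, Acss1 for Aqp4 at 0.85 and Dlx1as for Gja1 at 0.75. It was Ttyh1 for Gjb6 at 0.89, Gcnt4 for Aldh1l1 at 0.93 and Ly6a for Glul at 0.92. For Aldoc it was Pusl1 at 0.88, and for Fgfr3 Hrh2 at 0.90. Arl3 had 0.95 with S100b, where rho was 0.61. Without the libraries that stood apart, the 10 genes most like the mean z-score had r of 0.83 to 0.86, Arl3 with S100b had 0.57, Ttbk1 with Slc1a2 0.82 and Dlx1as with Gja1 0.69. The other 7 then had 0.82 to 0.92. Gja1, the steadiest of the genes, had the lowest of these maxima over all 20 libraries.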

How the data were processed

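The deposited counts are raw whole-number counts per gene, 1 table per library, per the labels and the file headers, which follow the featureCounts layout; the submitters' processing notes name STAR 2.5.2b and DESeq2 1.16.1. Counting options and genome build are not given in the sources used here; 49412 of 49671 identifiers occur in GENCODE M21 and 45214 have its coordinates. The 259 identifiers without a symbol hold 0.0415% of counts. Groups and replicate numbers come from the titles.

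Genes were kept by filterByExpr (minimum count 10, minimum total 15; 18427 genes, all 10 listed genes among them). edgeR 4.0.16 in R 4.3.3 fitted a robust quasi-likelihood model with TMM scaling to all 20 libraries, 1 mean per group, with 16 residual degrees of freedom. P-values were adjusted by Benjamini-Hochberg over all genes tested within a comparison, at 0.05. Log2 CPM used a prior count of 2. Replicates are separate mice per the labels, and 40 within-group pairs differed beyond sampling noise, with chi-square per gene of 11.5 to 134. The script was tested on simulated data. Alternatives were DESeq2 1.42.0, DESeq2 size factors, a replicate block, limma 3.58.1 voom with sample weights, 4 tissue scores or 1 surrogate variable (sva 3.50.0) as covariates, fits without the low-count filter or with only the compared groups, leaving out the 2 libraries that stood apart or each library in turn, and, chosen after seeing the data, oligodendrocyte and neuron scores.

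The 10 genes, the related lists, marker lists and alternatives were chosen with earlier results of these data known. All 10 genes are named whatever their values; of a related list, genes past the adjusted threshold, or else the 1 with the smallest p; and, as alike, the 10 highest r with the mean z-score and the 1 highest r per gene. Correlations used Python 3.11.15 and scipy 1.17.1.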

Additional observations from a re-analysis of the deposited data

Results flagged for a closer look

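Of 40 sets of 5 libraries (10 genes in 4 groups), 2 held a highest or lowest library whose distance to the next took more than 0.71 of the group's range, Dixon's critical value for 5 samples, which chance passes in about 1 of 20 sets. Both concern control replicate 4. S100b was at 148.9 CPM there, against a group median of 63.43 CPM, with 0.912 of the range between it and the next library. Slc1a2 was at 1430 CPM there, against a group median of 2234 CPM, with 0.796 of the range. In this library genes of at most 2128 exon bases had a median deviation of 0.35 and those of at least 5828 bases one of -0.32 on the log2 scale. No interaction of the 10 genes passed an adjusted p under 0.05 in edgeR.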

How the results depend on the processing

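Over 30 alternative fits, 0 of 1790 values of the 60 log2 fold changes of the 10 genes passed the adjusted threshold. Of them, 16 moved by at least 1 SD between replicates and 153 took the other sign, all without a call. The lowest adjusted p was 0.124, for Glul at -0.33 in melanoma plus ICI against melanoma under limma voom. Counts over all genes, 0 in each comparison in edgeR, were 1 (DESeq2), 4 (1 surrogate variable) and 1 (oligodendrocyte and neuron scores) for ICI against control. They were 8 (DESeq2), 1 (voom) and 3 (only the groups compared) for melanoma against control, and 25 (voom) for melanoma plus ICI against melanoma. In melanoma plus ICI against ICI they were 9 (DESeq2) and 1 (surrogate variable). The interaction had 47 (DESeq2), 19 (voom), 41 (surrogate variable), 1 (without the libraries that stood apart) and 4 (oligodendrocyte and neuron scores). The cause of these differences was not tested. Leaving out each library gave 0 to 3 for melanoma against control, 0 to 12 for melanoma plus ICI against melanoma and 0 to 11 for the interaction, with each maximum without melanoma plus ICI replicate 3.

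At an unadjusted p under 0.05, the count of the 10 genes became 1 in ICI against control with oligodendrocyte and neuron scores, where 9.09% of all genes had such a p; the shares of all genes in the same fit follow in brackets. In melanoma against control it became 2 under voom (6.97%) and the surrogate variable (6.69%), and 1 under DESeq2 (5.43%), tissue scores (5.17%), oligodendrocyte and neuron scores (13.8%) and without the libraries that stood apart (5.16%). In melanoma plus ICI against melanoma it became 4 under voom (14.9%; Glul, Gjb6, Fgfr3 and Aqp4), 3 with tissue scores (5.85%), 1 with the surrogate variable (8.89%) and 1 without the libraries that stood apart (7.11%). In melanoma plus ICI against ICI it became 0 under voom (11.7%), tissue scores (4.36%), oligodendrocyte and neuron scores (10.3%) and without the libraries that stood apart (10.1%). In the interaction it became 0 under voom (12.7%), the surrogate variable (9.97%), tissue scores (7.29%) and without the libraries that stood apart (7.99%), and 2 with oligodendrocyte and neuron scores (18.6%). Leaving out each library gave 0 to 2 in all but melanoma plus ICI against control, where it stayed 0, beside 1.60% to 15.6% of all genes over the 6 comparisons. With tissue scores, the median log2 fold change of the 10 genes was -0.05 in melanoma plus ICI against ICI and -0.084 in the interaction. Of the related lists, 2 genes were called under DESeq2, 1 under voom, 1 with the surrogate variable and 0 to 1 when each library was left out. Of the pairs of genes, 9 passed within groups and 9 without the libraries that stood apart, where r of Slc1a2 with S100b was 0.03, and 6 relations to marker scores passed there.

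The replicate numbers did not pair the libraries: over 30 same-numbered pairs the mean correlation of deviations was 0.03, from -0.35 to 0.53, with 10 pairs over 0.1, and 6 of 20 libraries correlated best with their own number. With the number as a replicate block, 0 genes were called in each comparison, and the counts of the 10 genes at an unadjusted p under 0.05 were 0, 0, 0, 0, 1 and 1, beside 4.98%, 4.89%, 1.87%, 5.27%, 7.98% and 9.38% of all genes.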
